A study of Mus musculus with 8 samples.

Results

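The heat shock genes of the heart described here are 10 genes of the 25929 in the deposited expression table, chosen by name: the small heat shock genes Hspb1, Hspb6, Hspb7, Hspb8 and Cryab, and the large heat shock genes Hspa1a, Hspa1b, Hspa8, Hsp90aa1 and Dnajb1. All 10 were found by Ensembl identifier, and all 10 passed the filter of at least 1 FPKM in 2 libraries that left 14442 genes for testing. FPKM is the number of sequenced fragments scaled to the length of the gene and to the size of the library. RNA was sequenced from the hearts of mice in 4 groups with 2 libraries each, 8 in all. WT-Sham and WT-TAC were wild-type C57BL/6 mice, and Fat1-Sham and Fat1-TAC were littermates that carried fat-1, a Caenorhabditis elegans gene for a desaturase that turns n-6 into n-3 polyunsaturated fatty acids. The TAC groups underwent transverse aortic constriction, a suture around the aorta that loads the heart with pressure, and in the sham groups the chest was opened without constriction. The mice of all groups had reached 3 months when surgery was performed. The promoter that drives fat-1 and the sex of the mice are not given in the sources used here. According to the sample labels the RNA came from ventricular tissue, while the methods speak of whole hearts. The labels call the libraries of a group independent samples, without saying that each came from its own mouse.

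Heat shock proteins are chaperones, which keep other proteins folded. The small members form large assemblies that hold unfolding clients, and in heart muscle they sit on sarcomeric and cytoskeletal filaments. Hsp70 and Hsp90 proteins refold clients with the energy of ATP, and J proteins such as Dnajb1 deliver clients to Hsp70. Heat shock factor Hsf1 turns on the inducible genes by binding inverted repeats of the letters GAA in their promoters, while Hspa8 is the constitutive Hsp70 of the cytosol and is expressed without stress.

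The inducible Hsp70 genes Hspa1a and Hspa1b are neighbouring copies on chromosome 17, and their upstream sequences are printed because both the genes and their promoters are nearly the same. The 250 bases before each gene start come from RefSeq (GRCm38.p6), both on the minus strand, with the inverted pair GAANNTTC in capitals. The Hspa1a stretch is chr17:34972157-34972406 and the Hspa1b stretch is chr17:34959239-34959488.
Hspa1a: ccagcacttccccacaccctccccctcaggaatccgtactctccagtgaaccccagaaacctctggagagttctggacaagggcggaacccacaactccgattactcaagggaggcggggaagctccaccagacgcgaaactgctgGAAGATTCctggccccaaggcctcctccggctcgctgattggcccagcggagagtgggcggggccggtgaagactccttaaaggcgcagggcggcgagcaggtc
Hspa1b: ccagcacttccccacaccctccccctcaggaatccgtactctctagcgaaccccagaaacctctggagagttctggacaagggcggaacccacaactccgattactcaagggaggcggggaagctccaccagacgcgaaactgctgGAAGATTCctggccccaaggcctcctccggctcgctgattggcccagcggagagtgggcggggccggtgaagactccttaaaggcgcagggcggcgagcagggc
The stretches were the same at 247 of 250 positions (98.8%). Counted from 1 at the 5′ end, the 3 differences from Hspa1a to Hspa1b were C44T, T47C and T249G. The pair began at -104 from the gene start in both.

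Hspb1, which encodes the small heat shock protein Hsp25, is shown as the small member whose promoter holds 2 such pairs. Its stretch is chr5:135887669-135887918 on the plus strand, with the 2 pairs in capitals at -117 and -97.
Hspb1: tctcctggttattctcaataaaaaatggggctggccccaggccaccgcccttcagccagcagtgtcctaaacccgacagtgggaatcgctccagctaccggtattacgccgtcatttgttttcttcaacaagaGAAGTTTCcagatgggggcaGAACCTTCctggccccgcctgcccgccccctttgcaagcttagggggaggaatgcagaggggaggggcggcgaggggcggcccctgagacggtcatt
Promoters of 300 bases, from 250 before to 50 after the start, were matched by symbol for 7 of the 10 genes. The pair GAANNTTC, which reads the same on both strands, was present for 5 of the 7. Besides those printed, Hspb6 held it at -120 from its second start and Hspb8 held it 2 bases past its start. It was not in these windows of Hspb7 and Dnajb1. Of all 32851 promoters of this length, 7.86% held GAANNTTC. That share counts promoters, while 5 of 7 counts genes, of which Hspb6 and Dnajb1 had 2 promoters each. The match is a description of letters and not of a bound site.

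The depth recovered from the table lay between 14163994 and 21218331 fragments per library. The WT-TAC libraries, and the first of them most, stood apart in their tissue markers. In the first WT-TAC library (WT-TAC1), 15 cardiomyocyte genes summed to 31104 FPKM, against 56884 to 74607 in the other 7 libraries. In the same library 9 thymocyte genes summed to 1895 FPKM, with none of them at 0, against 1.17 to 3.67 in the others. The summed FPKM of lung epithelial genes was 1728 and 3829 in the WT-TAC libraries, against 5.94 to 93.3 elsewhere, and that of adipocyte genes was 612 and 792, against 6.23 to 294.9. A panel of 5 atrial genes summed to 1031 to 3801 FPKM in the 4 WT libraries and 1323 in Fat1-Sham1, against 25.8 to 52.8 in the other 3 fat-1 libraries. Immediate early genes were also highest in WT-TAC1, at 485 FPKM against 214 to 388. Apart from the cardiomyocyte and immediate early genes, these lists mark cell types that are not ventricular muscle. The part of the lists in the results was not tested. Where leaving out WT-TAC1 moved a log2 fold change by over 1.5 times, the value without it is also given. Counts and shares of genes passing a p cutoff are those of all 8 libraries unless stated. They also moved when WT-TAC1 was left out. In such bulk tissue, fewer cells of a type and less RNA per cell cannot be told apart.

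The members fell into 2 ranges of level. On the deposited FPKM scale, averaged over the 8 libraries, Cryab (alpha B crystallin, the most abundant small heat shock protein of the heart) stood at 1126.3 and Hspa8 at 1091.9. Hspb7, a cardiac and skeletal muscle member, stood at 608, Hspb6 at 404, Hspb8 at 298 and Hspb1 at 243. Cryab was rank 51 of all genes by mean level, and Hspb1 was rank 348. The inducible and cochaperone genes were far lower: Dnajb1 at 10.5, Hsp90aa1 at 8.28, Hspa1b at 4.71 and Hspa1a at 2.20 FPKM. The neighbours Cryab and Hspa8 overlapped across libraries, as did Hspb8 and Hspb1.

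The order of levels depends on the gene length behind each FPKM. For Hspa8 the length used was 1230 bases, while its longest annotated transcript has 3158 bases. At the longest transcript, the mean of Hspa8 would be 425 FPKM, that of Cryab 839 and that of Hspb7 608, so that Hspa8 would fall behind Hspb7. Hsp90aa1 was counted over 1186 bases, against 3281 in its longest transcript, and would stand at 2.99. Ratios of FPKM between libraries do not depend on this length, but differences on the log2(FPKM + 1) scale do in low genes such as Hsp90aa1, through the added 1.

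Several members share sequence with other genes, so that their levels are uncertain where reads were split between copies. Of the 100-base windows of Hspa1a, 47.1% occur also in Hspa1b. Shares with processed pseudogenes or other copies were 42.7% for Hspb1, 31.6% in Hspa8 and 47.5% in Hsp90aa1. For Cryab, Hspb6, Hspb7, Hspb8 and Dnajb1 no such window was shared. Cryab overlaps Hspb2 on the opposite strand, and whether counting used the strand is not given in the sources used here.

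The genes lie on several chromosomes of GRCm38. Cryab is at chr9:50751325-50756636 and Hspa8 at chr9:40800984-40810087, both on the plus strand. Hspb1 is at chr5:135887919-135889563 (plus) and Hspb8 at chr5:116408491-116422864 (minus). Hspb6 is at chr7:30552178-30555443, Hspb7 at chr4:141420779-141425311 and Dnajb1 at chr8:83608193-83612653, all plus. On the minus strand, Hspa1a is at chr17:34969190-34972156, Hspa1b at chr17:34956436-34959238 and Hsp90aa1 at chr12:110690605-110702728.

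**Figure D1:**
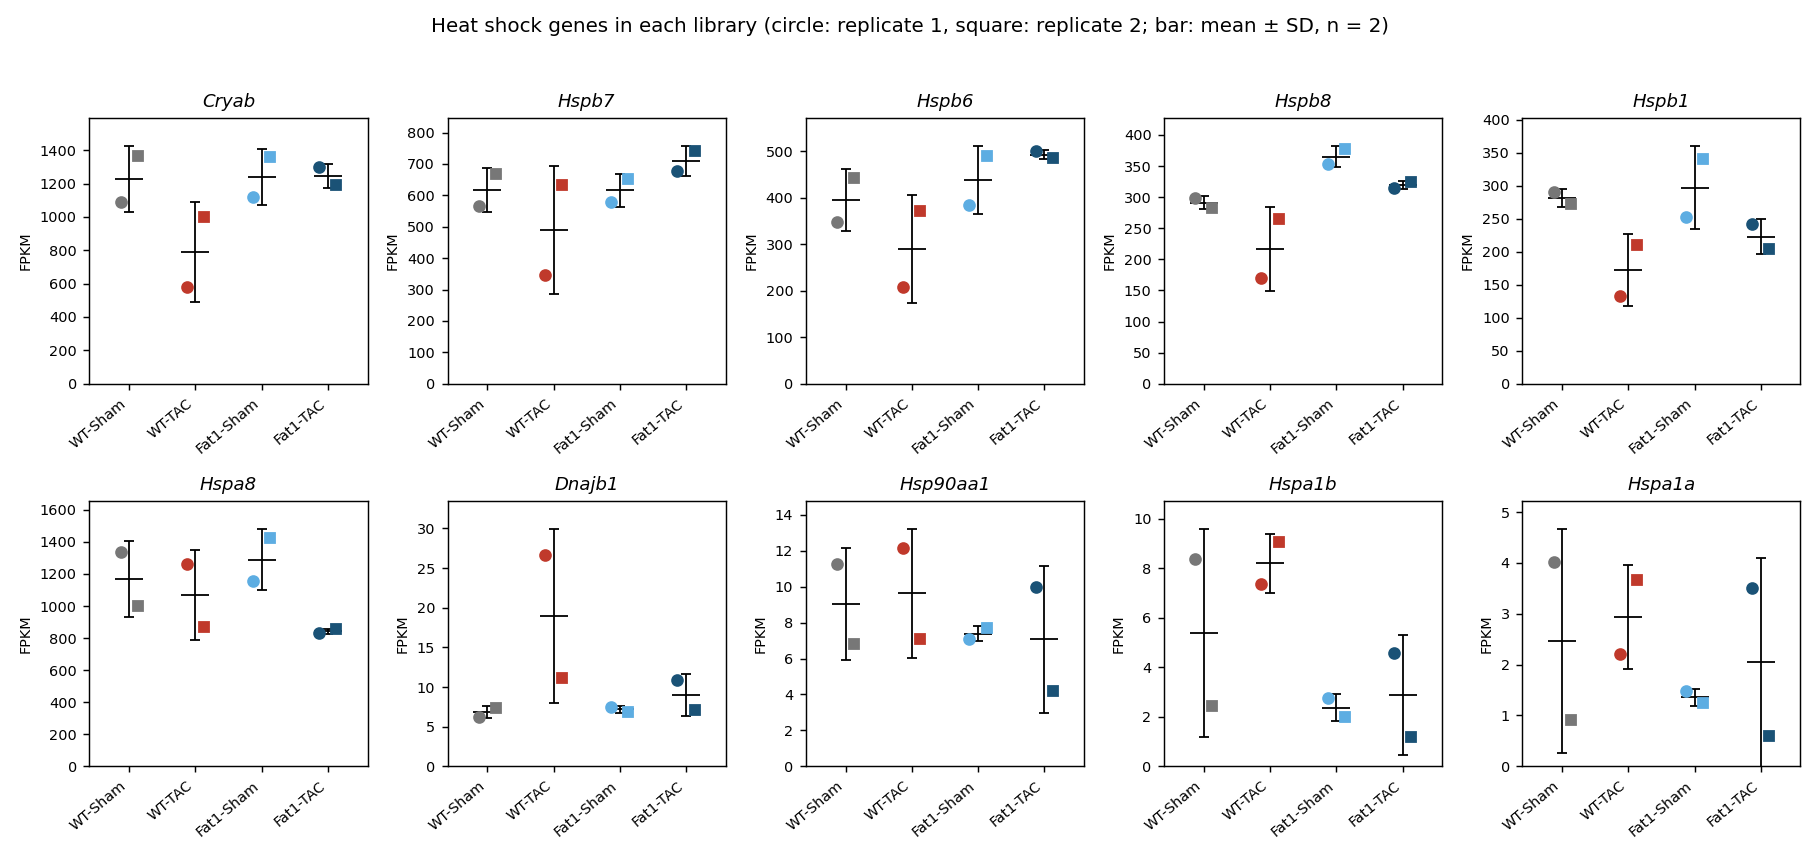
FPKM of the 10 genes by group (vertical axes, each from 0); circles are replicate 1, squares replicate 2, and bars the mean ± SD (n = 2). All 5 small members (top row) were lowest in WT-TAC1, and Dnajb1 was highest there, at 26.7 FPKM.

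The first comparison asks how pressure overload changed the heart of wild-type mice. On average, WT-TAC had lower levels of all 5 small members and higher levels of 4 of the 5 large members, but none of the 10 was a differentially expressed gene by limma, where a call needed a p under 0.1 after Benjamini-Hochberg adjustment together with a 1.5-fold difference. The same test called 0.935% of all genes in either direction. At an unadjusted p under 0.05, 3 of 10 members and 27.5% of all genes passed. limma-voom on the recovered fragments also called 0 of 10.

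Cryab was at 1089.7 and 1366 FPKM in WT-Sham and at 579.6 and 1002 FPKM in WT-TAC. WT-TAC1 was far below the rest, and the groups did not overlap. On the log2(FPKM + 1) scale, used for every fold change here, Cryab differed by -0.68 ± 0.29 (SE), with an adjusted p of 0.181 (limma). Hspb1 was at 290.7 and 272 FPKM in WT-Sham and at 133 and 211 FPKM in WT-TAC. Both WT-TAC libraries were below both WT-Sham libraries. Hspb1 differed by -0.74 ± 0.25 (limma adjusted p 0.175), the lowest of the 10 members.

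Hspb8, which works with the cochaperone Bag3 to clear damaged proteins, was at 298 and 283 FPKM in WT-Sham and at 169 and 264 FPKM in WT-TAC. Hspb8 differed by -0.46 ± 0.22 (limma adjusted p 0.195). These 3 small members were the only ones of the 10 with both WT-TAC libraries below both WT-Sham libraries, which held for 7.09% of all genes tested. Hspb7 was at 568 and 667 FPKM in WT-Sham and at 345 and 633 FPKM in WT-TAC. Hspb6 was at 348 and 442 FPKM in WT-Sham and at 207 and 372 FPKM in WT-TAC. For both genes only WT-TAC1 lay below the WT-Sham libraries. Their log2 fold changes were -0.40 ± 0.28 (Hspb7) and -0.50 ± 0.29 (Hspb6), with limma adjusted p of 0.332 and 0.254. Over the 5 small members the median log2 fold change was -0.50, against 0.39 over all genes tested.

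Without WT-TAC1 the log2 fold changes were closer to 0. Cryab was then at -0.28, Hspb1 at -0.41, Hspb8 at -0.14, Hspb6 at -0.075 and Hspb7 at 0.041. Their median was -0.14, against 0.20 over all genes. With cardiomyocyte scaling of all 8 libraries, described next, Hspb6, Hspb7 and Hspb8 changed sign, at 0.025, 0.12 and 0.063. That scaling also raised the median over all genes, which lay above each of these values. Leaving out WT-TAC2 instead, WT-TAC was WT-TAC1 alone, and its spread was taken from the other groups. Then 6 of 10 members and 50.5% of all genes were called, with the 5 small members lower, from -0.78 for Hspb8 to -1.07 for Cryab and Hspb1, and Dnajb1 higher at 1.83.

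The small members were next set against the cardiomyocyte level of each library, the geometric mean of 15 cardiomyocyte genes. This level was 0.535 of the geometric mean over the 8 libraries in WT-TAC1 and 0.997 to 1.20 in the others. After division by it, Cryab was at 1083 and 1005 FPKM in WT-TAC, against 1021 and 1324 FPKM in WT-Sham. Hspb7 was at 645 and 635 FPKM in WT-TAC, against 532 and 647 FPKM in WT-Sham. Its spread over the 8 libraries, as a coefficient of variation, was 19.7% as deposited and 8.21% after scaling. For Cryab it went from 22.8% to 9.82%, for Hspb6 from 24.4% to 9.79%, for Hspb8 from 21.3% to 8.64% and for Hspb1 from 25.7% to 15.7%. Hspb1 thus kept the widest spread of the 5, and WT-TAC1 was no longer the lowest library for any of them. The same scaling widened the spread of all 5 large members, for Hspa8 from 21.5% to 46.0% and for Dnajb1 from 65.0% to 118%. After it WT-TAC1 was the highest library for each large member, while as deposited this held only for Hsp90aa1 and Dnajb1.

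**Figure D2:**
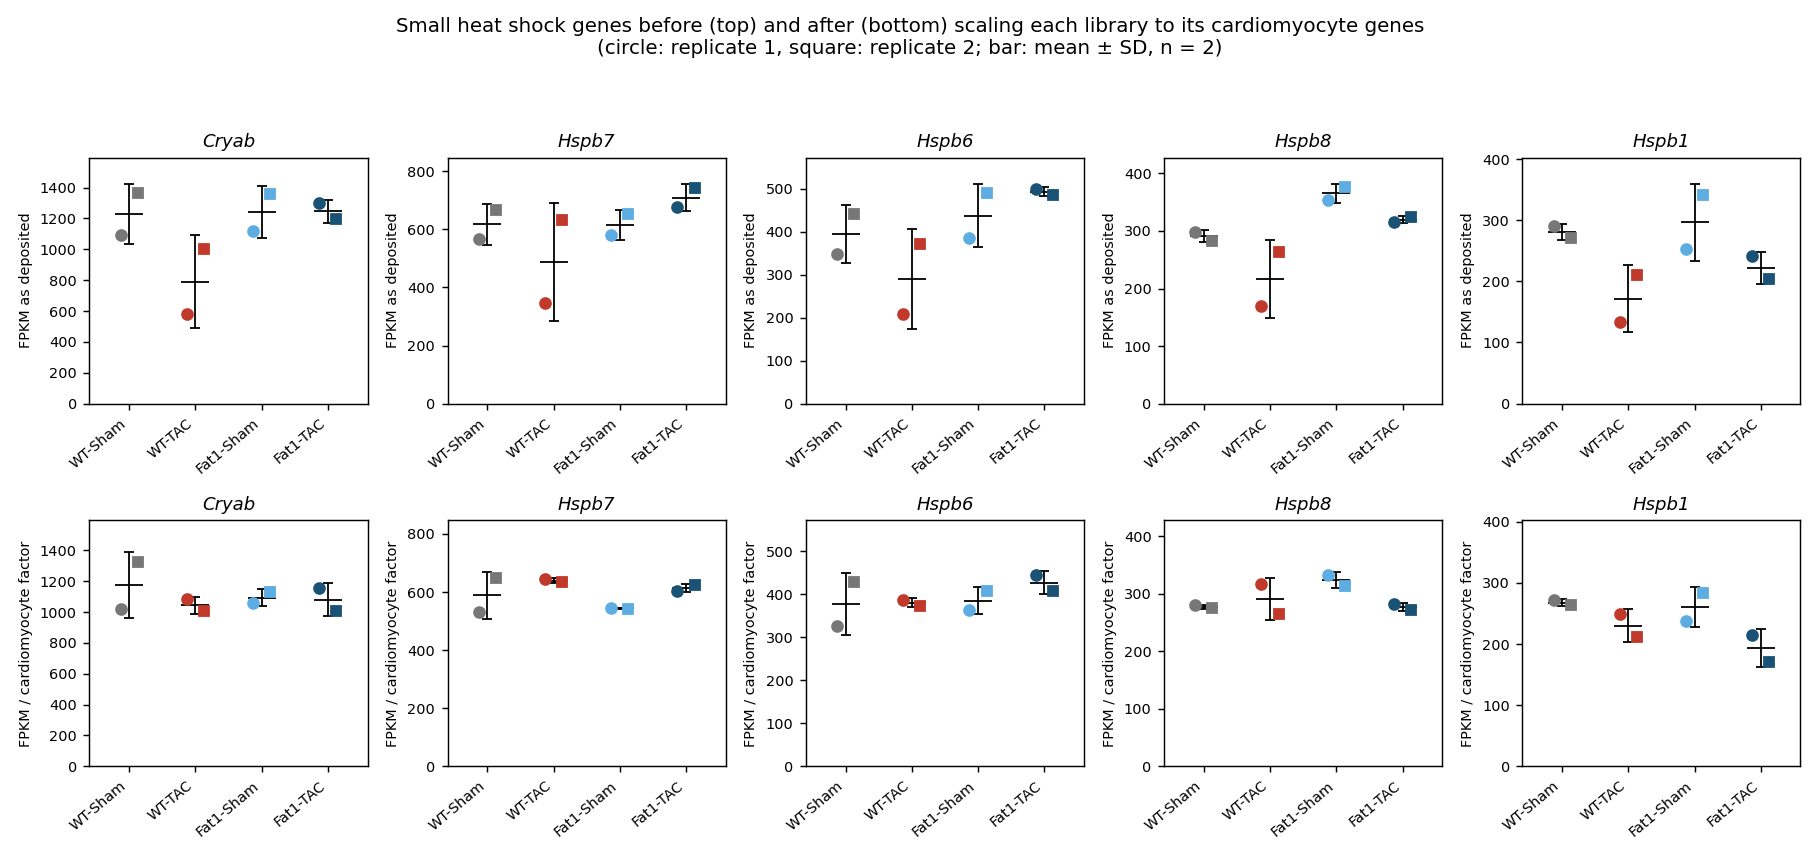
FPKM of the 5 small heat shock genes as deposited (top) and divided by the cardiomyocyte factor of each library (bottom); circles are replicate 1, squares replicate 2, bars the mean ± SD (n = 2), and both rows share a scale for each gene. The WT-TAC1 circles lie below the others at the top and among them at the bottom.

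Among the large members, Dnajb1 differed most. It was at 6.28 and 7.35 FPKM in WT-Sham and at 26.7 and 11.2 FPKM in WT-TAC. Both WT-TAC libraries were above both WT-Sham libraries, as for 52.5% of all genes tested. Dnajb1 differed by 1.24 ± 0.39 (limma adjusted p 0.175), and by 0.64 without WT-TAC1.

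Hspa1b was at 8.36 and 2.42 FPKM in WT-Sham and at 7.36 and 9.06 FPKM in WT-TAC. Hspa1a was at 4.02 and 0.905 FPKM in WT-Sham and at 2.21 and 3.66 FPKM in WT-TAC. For both genes the first WT-Sham library was as high as WT-TAC, and the groups overlapped. The log2 fold changes were 0.70 ± 0.57 (Hspa1b) and 0.32 ± 0.60 (Hspa1a), with limma adjusted p of 0.390 and 0.705, and without WT-Sham2 they were -0.030 and -0.38. Hspa8 was at 1337 and 999 FPKM in WT-Sham and at 1265 and 869.9 FPKM in WT-TAC. Hsp90aa1, the inducible cytosolic Hsp90, was at 11.3 and 6.83 FPKM in WT-Sham and at 12.2 and 7.09 FPKM in WT-TAC. In both genes the 2 libraries of a group differed by more than the group means. The log2 fold changes were -0.14 ± 0.25 (Hspa8) and 0.07 ± 0.42 (Hsp90aa1), with limma adjusted p of 0.701 and 0.906. Without WT-TAC1, Hspa8 was at -0.41, Hsp90aa1 at -0.28, Hspa1a at 0.59 and Hspa1b at 0.83. The direction of Hsp90aa1, of Hspa1a and of Hspa8 changed under other scalings of the libraries.

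In fat-1 mice the same comparison, Fat1-TAC against Fat1-Sham, called 0 of 10 members and 0.00692% of all genes (limma). At an unadjusted p under 0.05 it was 1 of 10, against 2.58% of all genes, and limma-voom called 0. The member was Hspa8, at 1153 and 1424 FPKM in Fat1-Sham and at 832 and 855 FPKM in Fat1-TAC. Both Fat1-TAC libraries lay below both Fat1-Sham libraries. The log2 fold change was -0.60 ± 0.25, with a limma adjusted p of 1.0.

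Hspb1 was also lower in both Fat1-TAC libraries, at 241 and 204 FPKM, than in the Fat1-Sham libraries, at 252 and 341 FPKM (log2 fold change -0.40 ± 0.25, from -0.62 without Fat1-Sham1 to -0.19 without Fat1-Sham2). Hspb8 was at 354 and 377 FPKM in Fat1-Sham and at 315 and 324 FPKM in Fat1-TAC. Hspb7 went the other way without overlap, at 579 and 652 FPKM in Fat1-Sham and at 676 and 742 FPKM in Fat1-TAC. Complete separation of 2 libraries from 2 was common in this comparison, at 26.8% of all genes upward and 21.5% downward. The members therefore divided 1 upward and 3 downward against that background. Cryab overlapped between the groups, at 1122 and 1359 FPKM in Fat1-Sham and at 1299 and 1194 FPKM in Fat1-TAC, with a log2 fold change of 0.01 ± 0.29. Hspb6 was at 386 and 489 FPKM in Fat1-Sham and at 499.9 and 486 FPKM in Fat1-TAC.

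Of the low inducible genes, Hspa1b was at 2.75 and 1.99 FPKM in Fat1-Sham and at 4.58 and 1.18 FPKM in Fat1-TAC. Hspa1a was at 1.48 and 1.24 FPKM in Fat1-Sham and at 3.50 and 0.594 FPKM in Fat1-TAC. The 2 Fat1-TAC libraries were the extremes in both genes, one above and one below Fat1-Sham. The Hspa1a values of the 8 libraries rested on 32 to 195 fragments each. Dnajb1 was at 7.44 and 6.89 FPKM in Fat1-Sham and at 10.9 and 7.14 FPKM in Fat1-TAC (log2 fold change 0.27 ± 0.39, and -0.0035 without Fat1-TAC1). Hsp90aa1 was at 7.11 and 7.67 FPKM in Fat1-Sham and at 9.97 and 4.18 FPKM in Fat1-TAC.

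**Figure D3:**
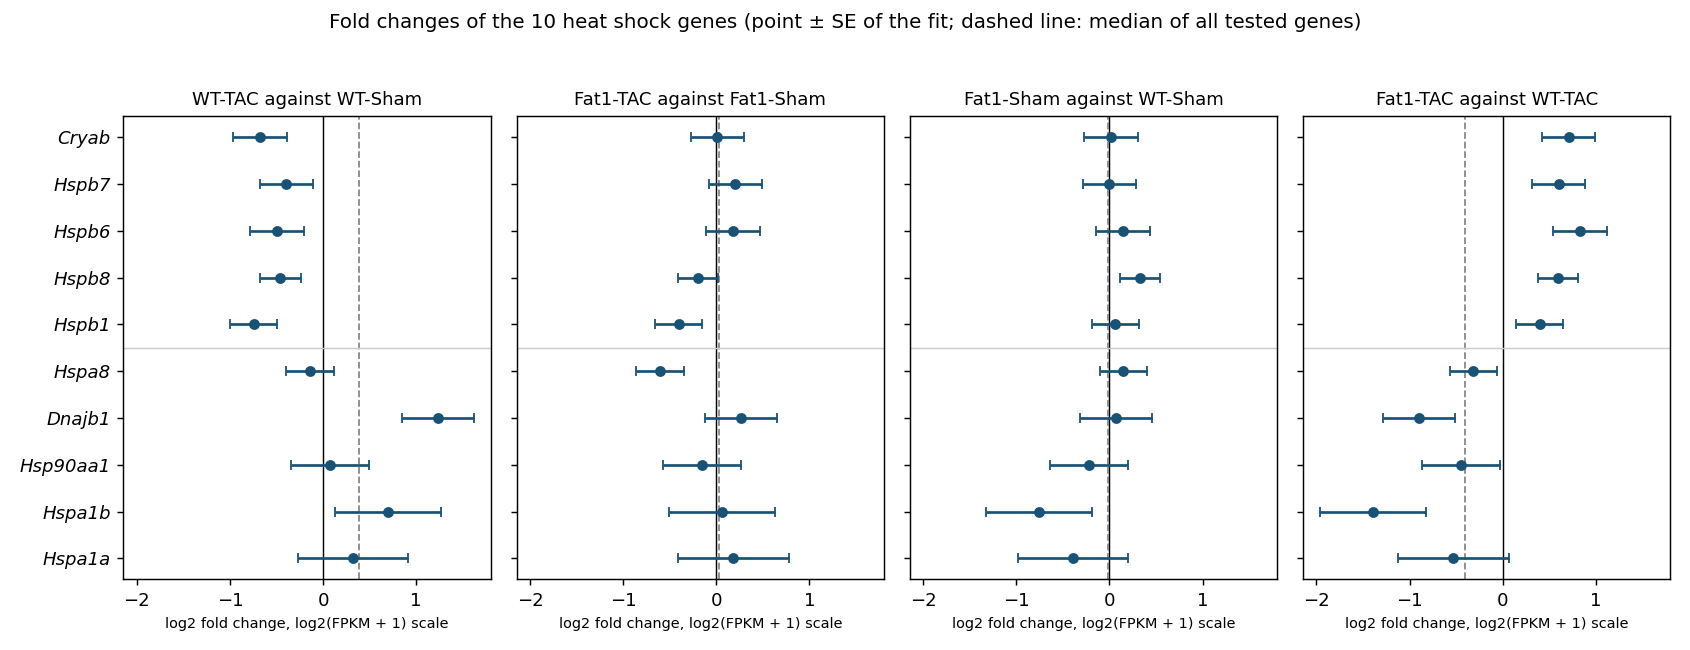
log2 fold change on the log2(FPKM + 1) scale (horizontal) of the 10 genes in 4 comparisons; points are the limma estimates, bars their SE, and the dashed line is the median of all genes tested. In WT-TAC against WT-Sham the 5 small members lie below 0 while the median of all genes is at 0.39; in Fat1-TAC against WT-TAC they lie above 0 with a median of all genes at -0.40.

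In the difference between the 2 responses to surgery, the interaction of genotype and surgery, 0 of 10 members and 0.0692% of all genes were called (limma). None of the 10 had an unadjusted p under 0.05, against 7.26% of all genes, and limma-voom called 0. The largest estimates were 0.69 ± 0.41 for Cryab, 0.68 ± 0.41 for Hspb6 and -0.97 ± 0.55 for Dnajb1, each with an adjusted p of 0.495. Without WT-TAC1 they were 0.30, 0.26 and -0.37. A different response of the heat shock genes in the 2 genotypes was thus not shown. No member (0 of 10) had both TAC libraries above sham in one genotype and both below in the other, a pattern of 9.19% of all genes. For genotype under the 2 surgeries it was also 0 of 10, against 7.26% of all genes.

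Over both genotypes, TAC against sham, limma called 0 of 10 members and 0.0% of all genes. At an unadjusted p under 0.05, 2 of 10 passed, against 15.8% of all genes, and limma-voom called 0. These were Hspb1 and Dnajb1. Hspb1 was the only member whose 4 TAC libraries (133 to 241 FPKM) all lay below the 4 sham libraries (252 to 341 FPKM), a separation found in 1.45% of all genes. Of 65 other chaperone genes described below, 6 were separated downward as well (Unc45b, Dnajb2, Bag1, Dnaja2, Dnaja4 and Serpinh1). Another, Dnajc7, was separated upward, as were 7.82% of all genes. For Hspb1 the difference was -0.57 on the log2 scale, lower in 4 of 4 TAC libraries. Its exact two-sided permutation p was 0.0286, the smallest that 4 libraries against 4 can give. That p follows from the separation itself, and each of the 10 members was tested. The adjusted p over all genes was 0.276 (limma). Without WT-TAC1 the other 3 TAC libraries still lay below the 4 sham libraries, as for 2.44% of all genes, and the difference was -0.40. Hspa8 joined Hspb1 in this separation without WT-TAC1, at -0.51, and also with median of ratios scaling of all 8 libraries, at -0.63, where 5.72% of all genes were separated downward. After cardiomyocyte scaling the TAC libraries were at 171 to 249 and the sham libraries at 238 to 284, so that they overlapped, with a difference of -0.33 and an exact permutation p of 0.0571.

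The ratio of Hspb1 to its 4 small relatives within each library is free of any scaling, and was looked at after its values were seen. Hspb1 amounted to 12.6% and 9.86% of the summed FPKM of the other 4 in WT-Sham, and to 10.3% and 9.27% in WT-TAC. It amounted to 10.3% and 11.9% in Fat1-Sham, and to 8.64% and 7.41% in Fat1-TAC. The 2 Fat1-TAC libraries held the lowest ratios of the 8, and the WT groups overlapped. Dnajb1 stood at 10.9, 7.14, 26.7 and 11.2 FPKM in the TAC libraries and at 6.28 to 7.44 FPKM in the sham libraries, with 1 TAC library inside the sham range (limma log2 difference 0.75 ± 0.27, adjusted p 0.299), which was 0.46 without WT-TAC1.

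The comparison of the genotypes after sham surgery, Fat1-Sham against WT-Sham, called 0 of 10 members and 0.0% of all genes (limma). None of the 10 had an unadjusted p under 0.05, against 1.25% of all genes, and limma-voom called 0. All small members but Hspb8 differed by 0.15 or less on the log2 scale. Hspb8 was at 354 and 377 FPKM in Fat1-Sham and at 298 and 283 FPKM in WT-Sham. It alone of the 10 did not overlap (log2 fold change 0.33 ± 0.22, adjusted p 1.0), and 15.5% of all genes were separated upward in this way. For Hspa1b the log2 fold change was -0.76 ± 0.57, and WT-Sham1 alone stood above the other 3 sham libraries, with -0.032 when it was left out.

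After pressure overload, Fat1-TAC against WT-TAC, all 5 small members were higher and all 5 large members lower in Fat1-TAC on average, and 0 of 10 were called, against 1.43% of all genes (limma). At an unadjusted p under 0.05, 4 of 10 members passed, against 29.4% of all genes, and limma-voom called 0. This comparison shares the WT-TAC libraries with the first one, so that the 2 mirror each other in part by construction. Hspb7, Cryab, Hspb6 and Hspb8 were higher in both Fat1-TAC libraries than in both WT-TAC libraries, as were 9.33% of all genes. Hspb6 had the largest difference upward, with 499.9 and 486 FPKM in Fat1-TAC against 207 and 372 FPKM in WT-TAC (log2 fold change 0.83 ± 0.29, adjusted p 0.163). Hspb8, Cryab and Hspb7 followed at 0.59 ± 0.22, 0.71 ± 0.29 and 0.60 ± 0.28, and Hspb1 was at 0.40 ± 0.25. Without WT-TAC1 these values were 0.40 for Hspb6, 0.27 for Hspb8, 0.31 for Cryab, 0.16 for Hspb7 and 0.073 for Hspb1. After cardiomyocyte scaling, Hspb1, Hspb7 and Hspb8 changed sign, at -0.26, -0.060 and -0.066.

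Hspa1b was the lowest of the large members in this comparison. Its Fat1-TAC libraries, at 4.58 and 1.18 FPKM, were both below the WT-TAC libraries, at 7.36 and 9.06 FPKM. Hspa1b differed by -1.39 ± 0.57 (limma adjusted p 0.167), and by -1.53 without WT-TAC1. Leaving out Fat1-TAC1 or Fat1-TAC2 gave -2.07 and -0.72. Such a downward separation was found in 57.1% of all genes. Dnajb1 was at -0.90 ± 0.39, and at -0.31 without WT-TAC1.

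Over both surgeries, fat-1 against WT, limma called 0 of 10 members and 0.0415% of all genes. At an unadjusted p under 0.05, 3 of 10 passed (Hspb6 and Hspb8 upward, Hspa1b downward), against 14.9% of all genes, and limma-voom called 0. Hspb8 was the only member whose 4 fat-1 libraries (315 to 377 FPKM) all lay above the 4 WT libraries (169 to 298 FPKM), as for 0.983% of all genes. Of the 65 other chaperone genes, Bag3 was separated upward as well. Another 5 were separated downward (Pdia6, Dnajc3, Fkbp5, Pdia4 and Pdia3), as were 4.56% of all genes. For Hspb8 the difference was 0.46 on the log2 scale, higher in 4 of 4 fat-1 libraries. Its exact two-sided permutation p was 0.0286, which follows from the separation itself, and its limma adjusted p was 0.285. Without WT-TAC1 it was 0.28 and the libraries still did not overlap, as for 1.38% of all genes. After cardiomyocyte scaling the fat-1 libraries were at 272 to 333 and the WT libraries at 265 to 316, with a difference of 0.078 and an exact permutation p of 0.400. Of the marker lists, 2 separated the genotypes without overlap. The 7 fibroblast genes summed to 639 to 1073 FPKM in the WT libraries and to 561 to 621 FPKM in the fat-1 libraries, and the 7 macrophage genes to 174 to 291 FPKM and to 150.4 to 163 FPKM. The atrial genes above and the erythroid genes, at 5025 to 10580.5 FPKM in WT and 4239.6 to 6198 FPKM in fat-1, overlapped between the genotypes. Their part in the Hspb8 difference was not tested.

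**Figure D4:**
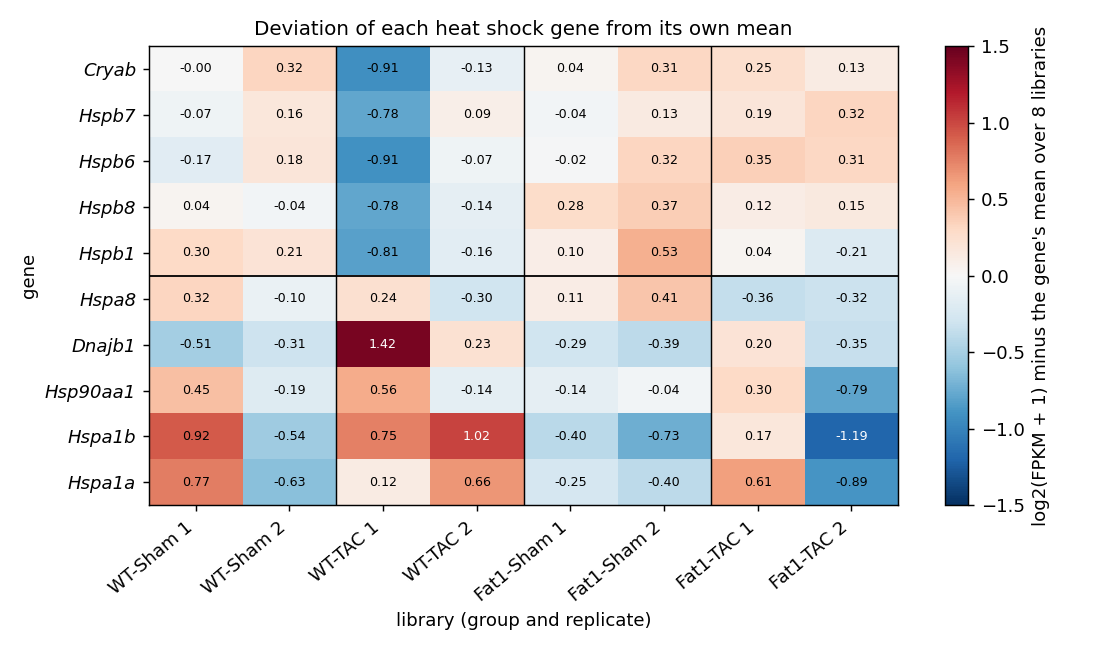
log2(FPKM + 1) of each gene minus its mean over the 8 libraries (colour and printed value), genes in rows and libraries in columns grouped as labelled. The small members deviate together in WT-TAC1, from -0.78 to -0.91, and Hspa1a and Hspa1b deviate in the same direction in each library.

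The replicates themselves differed most in the inducible genes. Hspa1b ran from 1.18 to 9.06 FPKM over the 8 libraries, a ratio of 7.68, and Hspa1a from 0.594 to 4.02 FPKM, a ratio of 6.77. Hspa8 ran over a ratio of 1.71 only. Both Hspa1 genes were higher in WT-Sham1 than in WT-Sham2 and higher in Fat1-TAC1 than in Fat1-TAC2, and Hsp90aa1 shared these 2 differences. The ratio of Hspa1b to Hspa1a lay between 1.31 in Fat1-TAC1 and 3.33 in WT-TAC1. With many windows in common, the 2 genes are not independent readouts.

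By likeness over the 8 libraries, the 5 genes closest to the mean profile of the small members, among 6890 genes with a mean of at least 10 FPKM, were Coq5 (Pearson r 0.994), Fxyd1 (0.993), Inpp5a (0.991), Grb14 (0.990) and Endog (0.988). Each of them was lowest in WT-TAC1, as the small members were. Without that library their r lay between 0.922 (Inpp5a) and 0.962 (Fxyd1). Closest to the large members were Eogt (0.957), Hey1 (0.902), Mettl26 (0.898), Rpl30-ps10 (0.897) and Errfi1 (0.880), each highest in WT-TAC1. These r describe the ranking and carry no test.

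Beyond the 10 members, 69 other chaperone genes were listed in 8 groups, of which 65 passed the filter. None was called in any of the 7 comparisons (limma). The 4 that did not pass were Hspb9, Cryaa, Hspa1l and Hsf5, all below 1 FPKM in each of the 8 libraries. At an unadjusted p under 0.05, 6 of 65 (9.23%) passed in WT-TAC against WT-Sham (5 higher, 1 lower), where 27.5% of all genes did. In Fat1-TAC against Fat1-Sham it was 2 of 65 (3.08%, both lower), against 2.58% of all genes, and between the sham groups 0, against 1.25%. In Fat1-TAC against WT-TAC it was 22 of 65 (33.8%; 2 higher, 20 lower), against 29.4%. It was 4 (6.15%) in the interaction, against 7.26%, 5 (7.69%) over both genotypes, against 15.8%, and 8 (12.3%) over both surgeries, against 14.9%.

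The largest estimates in WT-TAC against WT-Sham were those of Fkbp5, Dnajc7 and Bag4. Fkbp5, an Hsp90 cochaperone induced by glucocorticoids, was at 17.8 and 9.59 FPKM in WT-Sham and at 75.5 and 16.4 FPKM in WT-TAC, so that WT-TAC1 alone stood apart (log2 fold change 1.37 ± 0.63, adjusted p 0.189; 0.30 without WT-TAC1). Dnajc7, a J protein that links Hsp70 and Hsp90, was at 53.6 and 53.9 FPKM in WT-Sham and at 144 and 73.3 FPKM in WT-TAC (0.92 ± 0.29, adjusted p 0.175; 0.44 without WT-TAC1). Bag4, a nucleotide exchange factor of Hsp70, was at 0.79 ± 0.30, and at 0.46 without WT-TAC1. Of the 7 mitochondrial chaperones, 6 were below 0, with a median of -0.27, and 3 were below 0 without WT-TAC1, with a median of 0.014.

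The chaperones of the endoplasmic reticulum, which fold secreted and membrane proteins, had the lowest median of the 8 lists in both comparisons of Fat1-TAC. All 14 were below 0 in Fat1-TAC against Fat1-Sham (median -0.31, against 0.025 over all genes) and in Fat1-TAC against WT-TAC (median -0.63, against -0.40 over all genes, with 9 of 14 below it), and the 2 comparisons share the Fat1-TAC libraries. In the second, 11 of 14 had an unadjusted p under 0.05, against 29.4% of all genes, and the lowest adjusted p was 0.121, that of Pdia6 (limma). Sdf2l1, a cofactor of the endoplasmic reticulum Hsp70 system, was at 3.09 and 4.03 FPKM in Fat1-TAC, against 6.90 and 5.31 FPKM in Fat1-Sham and 15.8 and 6.03 FPKM in WT-TAC. Its log2 fold changes were -0.64 ± 0.40 against Fat1-Sham and -1.26 ± 0.40 against WT-TAC, the latter -0.63 without WT-TAC1. Serpinh1, a collagen chaperone, was at 100.03 and 124 FPKM in Fat1-TAC and at 149.6 and 193 FPKM in Fat1-Sham (log2 fold change -0.60 ± 0.23, adjusted p 1.0). Hyou1, an Hsp70 relative of the endoplasmic reticulum, was at 11.4 and 14.4 FPKM in Fat1-TAC and at 19.4 and 21.2 FPKM in Fat1-Sham. Dnaja1, a cytosolic J protein, was at -1.10 ± 0.36 in Fat1-TAC against WT-TAC, and Fkbp5 at -2.17 ± 0.63. Without WT-TAC1 they were at -0.64 and -1.10. The 14 endoplasmic reticulum genes all stayed below 0 without WT-TAC1, with a median of -0.41, against -0.19 over all genes. Of them, 8 then had an unadjusted p under 0.05, against 17.5% of all genes (limma). In Fat1-TAC against Fat1-Sham it was 9 of 14 without WT-TAC1, against 11.2% of all genes. With all 8 libraries it was 2 of 14, against 2.58%.

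Between the sham groups the largest estimates were those of Fkbp5 at -0.58 ± 0.63, Pdia4, a disulfide isomerase, at -0.28 ± 0.27 and Bag3, the cochaperone of Hspb8, at 0.25 ± 0.26. Without WT-Sham1, Fkbp5 was at -0.16 and Pdia4 at -0.14, and without Fat1-Sham2, Bag3 was at 0.11. Over both surgeries the largest were Fkbp5 at -1.38 ± 0.44, Sdf2l1 at -0.74 ± 0.28 and Pdia4 at -0.66 ± 0.19, which were -0.84, -0.43 and -0.46 without WT-TAC1. Hsp90ab1, the constitutive cytosolic Hsp90, was named after its values were seen, as the counterpart of Hsp90aa1. It lay between 1069 and 1577 FPKM, from 109 to 256 times the level of Hsp90aa1 in the same library. The gene lengths above bear on this ratio.

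**Figure D5:**
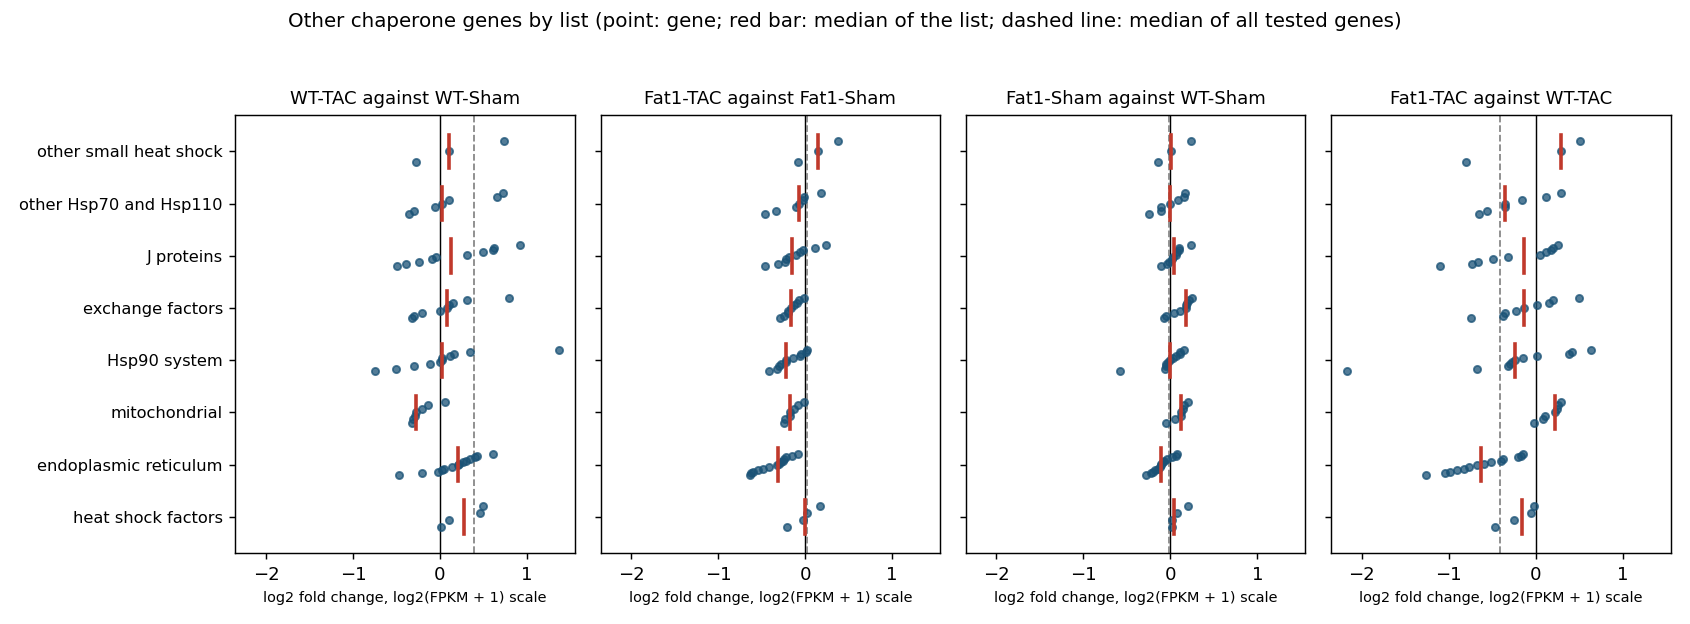
log2 fold change on the log2(FPKM + 1) scale (horizontal) of the 65 other chaperone genes by list (rows) in 4 comparisons; points are genes, red bars the median of a list, and the dashed line the median of all genes tested. The 14 endoplasmic reticulum genes lie below 0 in both comparisons of Fat1-TAC, with medians of -0.31 and -0.63.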

How the data were processed

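Libraries were sequenced on the Illumina HiSeq platform after preparation with a NEBNext Ultra kit. The table deposited by the authors gives FPKM for 25929 genes in each of 8 libraries, 2 per group. The submitters' processing notes name HISAT2 and mm10 (GRCm38). The counting program, gene annotation and versions are not given in the sources used here. Symbols and positions were taken from GENCODE M21 (25852 genes with a symbol). Whole fragments were recovered from the FPKM values (100.0% of genes within 0.01 of a whole number) and gave the depth.

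Genes with at least 1 FPKM in 2 libraries were kept (14442). Values were fitted as log2(FPKM + 1) with limma 3.58.1 (R 4.3.3; trend, 4 group means, all 8 libraries), and a call needed a p under 0.1 after Benjamini-Hochberg adjustment and a 1.5-fold difference, the cutoffs of the study. Exact permutation tests used scipy 1.17.1. The fits were tested on simulated counts with the same spread for all genes. No single simulated library was set apart as WT-TAC1 is, so the simulation does not cover that case. The p-values measure the spread between libraries, which may be technical.

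The 10 members and the gene lists were chosen with earlier results of these data known. The text names the members, the 3 chaperone genes of largest change per comparison and the 5 genes most like each set of members. For the interaction and for TAC against sham over both genotypes, the estimates of those 3 chaperone genes are not printed. Alternatives were other scalings, filters, pseudocounts, tests and libraries left out.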

Additional observations from a re-analysis of the deposited data

Results flagged for a closer look

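No member was flagged: none of the 10 moved in opposite directions without overlap in the 2 genotypes or under the 2 surgeries. Among the 65 other chaperone genes, 5 did so for surgery in the 2 genotypes, against 9.19% of all genes. Hsf1, the main activator of heat shock genes, was at 13.6 and 15.4 FPKM in WT-Sham and at 23.7 and 17.3 FPKM in WT-TAC, but at 16.2 and 17.6 FPKM in Fat1-Sham and at 14.1 and 14.7 FPKM in Fat1-TAC. The interaction on the log2 scale was -0.67 for Hsf1, -0.81 for Dnajc5, -0.58 for Dnajb11, -0.87 for Dnajc3 and -0.53 for Pdia6, and none of these passed the test (limma adjusted p 0.495 for each). Each of these 5 genes was highest in WT-TAC1, and without it the interaction was -0.46 for Hsf1, -0.44 for Dnajc5, -0.38 for Dnajb11, -0.36 for Dnajc3 and -0.43 for Pdia6. For genotype under the 2 surgeries, 4 genes moved in opposite directions, against 7.26% of all genes: Hsf1, Dnajc5, Dnajb11 and Bag6, the last with an interaction of -0.40 (limma adjusted p 0.495). Groups of 2 libraries are too small to search for single outlying samples within a group. WT-TAC1 stood apart in its tissue markers by comparison with the libraries of all groups.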

How the results depend on the processing

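The count of called members stayed at 0 under each alternative except the one that left out WT-TAC2, over all 7 comparisons, or over 4 for the fit of only the groups compared. With single libraries left out in turn, it ranged from 0 to 6 for pressure overload in wild-type mice, from 0 to 6 for genotype after TAC, from 0 to 7 in the interaction, from 0 to 2 over both genotypes and from 0 to 4 over both surgeries, with the highest value without WT-TAC2 each time. The count of other chaperone genes ranged likewise from 0 to 25, 27, 26, 8 and 9. In those fits without WT-TAC2, 50.5%, 53.8%, 45.8%, 25.5% and 25.6% of all genes were called. Without WT-TAC1 and with cardiomyocyte scaling, an alternative chosen after seeing the data, 3 of 65 other chaperone genes were called in Fat1-TAC against WT-TAC (Pdia6, Fkbp5 and Pdia4, all lower), against 4.32% of all genes, and 2 of 65 over both surgeries (Fkbp5 and Pdia4), against 5.88%.

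The exact permutation result of Hspb1 was -0.33 (p 0.0571) with cardiomyocyte scaling, and that of Hspb8 was 0.078 (p 0.400) with cardiomyocyte scaling and 0.71 (p 0.0571) with median of ratios scaling. Without WT-TAC1 they were -0.40 and 0.28, with an exact permutation p of 0.0571 that is the smallest 3 libraries against 4 can give.

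Signs of named log2 fold changes turned as follows. In WT-TAC against WT-Sham, quantile normalization gave -0.48 for Hsp90aa1, -0.26 for Hspa1a and 0.13 for Hspa8, median of ratios scaling gave -0.36 for Hsp90aa1 and -0.011 for Hspa1a, and cardiomyocyte scaling gave 0.38 for Hspa8, 0.025 for Hspb6, 0.12 for Hspb7 and 0.063 for Hspb8. The added alternative gave -0.21 for Hsp90aa1 and 0.11 for Hspb7. In Fat1-TAC against WT-TAC, quantile normalization gave 0.10 for Hsp90aa1 and 0.018 for Hspa1a, median of ratios scaling gave 0.16 for Hspa8, cardiomyocyte scaling gave -0.26 for Hspb1, -0.060 for Hspb7 and -0.066 for Hspb8, and the added alternative gave -0.14 for Hspb1 and -0.049 for Hspb7. Leaving out single libraries gave ranges that crossed 0 in WT-TAC against WT-Sham for Hsp90aa1 (-0.28 to 0.43), Hspa1a (-0.38 to 1.02), Hspa1b (-0.030 to 1.42), Hspa8 (-0.41 to 0.13) and Hspb7 (-0.83 to 0.041), and in Fat1-TAC against WT-TAC for Hsp90aa1 (-0.99 to 0.089) and Hspa1a (-1.28 to 0.22). The causes were not tested.

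The difference between replicates 1 and 2 correlated at -0.14 to 0.024 between groups. This gave no sign that replicate numbers pair the libraries, but cannot exclude a pairing or a shared batch. With the replicate number as a block, 0 members and 0 other chaperone genes were called in each comparison, and the count over all genes went from 135 to 52 in WT-TAC against WT-Sham and from 206 to 52 in Fat1-TAC against WT-TAC. Median of ratios scaling moved the median log2 fold change of all genes from 0.39 to -0.017 in WT-TAC against WT-Sham, and cardiomyocyte scaling moved it to 0.85. With 2 libraries per group, 1 library decides most values. The counts behind Hspa1a (32 to 195 fragments) limit its precision.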
